A study of Mus musculus with 6 samples.

Results

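The genes described here are 10 that act in mitosis: the kinases Aurka, Aurkb and Plk1, the chromosomal passenger subunits Birc5 and Cdca8, and the spindle factors Tpx2, Hmmr, Nusap1, Dlgap5 and Ckap2l. They were picked by symbol for their known roles, with earlier results of these data known. Counts over the 10 genes are therefore a description and no test of the set. All 10 were found among the 11108 genes of the deposited table. Expression was measured by RNA-seq in mouse hematopoietic stem cells, which renew themselves and give rise to every blood lineage, in 3 Mcph1-/- libraries and 3 wild-type (WT) libraries. A library came from 200 bone marrow cells, amplified with Smart-seq2, which copies whole transcripts from minute amounts of RNA. The cells were sorted as lineage-negative cells with Sca-1, c-Kit and CD150 and without CD34. Microcephalin, the product of Mcph1, holds back early chromosome condensation and takes part in the response to DNA damage. Not given in the sources used here are the deleted allele, the age and strain of the mice, and whether each library came from its own mouse. The p-values therefore cover the spread between these libraries alone, and that spread may be technical.

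Aurora A, the product of Aurka, matures the centrosomes and is switched on and carried to spindle microtubules by TPX2. Aurora B, the product of Aurkb, works in the chromosomal passenger complex with survivin (Birc5), borealin (Cdca8) and the scaffold INCENP, and corrects faulty attachments between chromosomes and the spindle. PLK1 drives entry into mitosis and is itself switched on by Aurora A. Transcripts of these genes are most abundant in G2 and mitosis, and stem cells of the adult marrow are largely quiescent, with few cells dividing at a time.

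None of the 10 genes passed the test between genotypes. Values are normalised read counts, that is, gene reads divided by 1 size factor per library. They were tested by limma-trend as log2(value + 1), and p-values were adjusted by Benjamini-Hochberg over all 10846 genes whose mean value was at least 10. All 10 members passed that filter, 0 had an adjusted p under 0.05, and the smallest adjusted p was 0.610. Over all tested genes 4 passed, 0.0369%. At an unadjusted p under 0.05 there were 3 of the 10 (Tpx2, Birc5 and Hmmr), against 7.71% of all tested genes. On the recovered reads, edgeR called 0 of the 10 (0.0184% of all tested genes) and limma-voom 0 of the 10 (0.00922%). DESeq2 called 0 of the 9 members to which it gave an adjusted p, all but Dlgap5, and 2.23% of all genes with one.

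The 10 group means were nevertheless all higher in Mcph1-/- than in WT, whereas 48.7% of all tested genes had a higher mean there. The log2 fold changes (Mcph1-/- over WT, a difference of mean log2 values) ran from 0.23 for Aurkb to 3.24 for Ckap2l. All 10 were above 0, against 53.8% of tested genes, and 6 were above 1, against 21.3%. Their median was 1.01, and that of all tested genes was 0.08. The Aurkb means were nearly equal (247 in Mcph1-/- and 246 in WT). The log2 fold changes of Dlgap5 and Ckap2l, 2 of the 6 above 1, depend on libraries with 0 reads and on the added 1. By DESeq2 Aurka was at 0.62, Ckap2l at 0.74 and Aurkb at 0.003, while Birc5, Tpx2, Hmmr and Dlgap5 stayed above 1. For Tpx2 and Hmmr every Mcph1-/- library lay above every WT library, a pattern found in 7.40% of tested genes, and the groups of the other 8 overlapped.

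**Figure D1:**
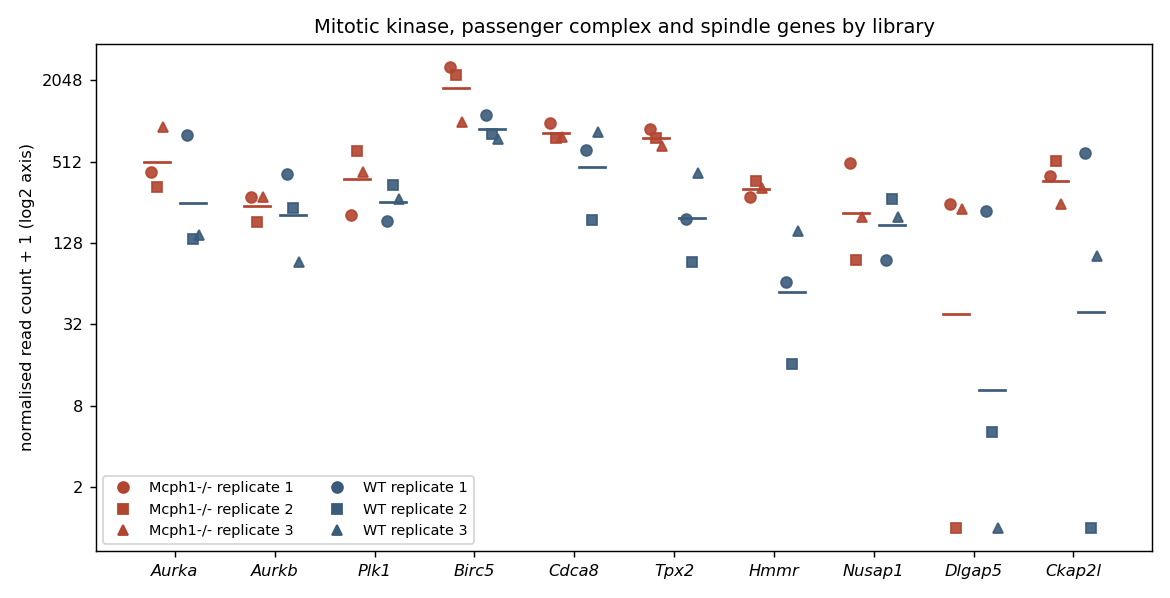
Normalised read count plus 1 of each gene, on a log2 axis, in the 3 Mcph1-/- libraries (red, left of each pair) and the 3 WT libraries (blue, right). Marker shapes give the replicate number and bars the mean of the log2 values. The groups are apart for Tpx2 and Hmmr only, and the points at the bottom are the libraries with 0 reads for Dlgap5 and Ckap2l.

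Mitotic genes are known for a short promoter element, the cell cycle genes homology region (CHR), through which the DREAM complex represses them in quiescent cells and B-MYB and FOXM1 complexes switch them on in G2. Around it lie CCAAT boxes, bound by NF-Y. RefSeq promoters (GRCm38.p6, 250 bases before to 50 after the annotated start) were matched for 7 of the 10 genes, all but Aurkb, Tpx2 and Dlgap5. The CHR was searched as TTTGAA and the CCAAT box as CCAAT, on both strands. Aurka, Plk1, Cdca8, Hmmr and Ckap2l held both, while Birc5 and Nusap1 held neither. Among all 32851 promoters of the table, 17.9% held the CHR letters, 37.4% the CCAAT letters and 6.95% both.

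In each of those 5 genes a CHR match on the gene's own strand lay after the annotated RefSeq start, with its first base at position 33 in Aurka, 31 in Plk1, 14 in Cdca8, 9 in Hmmr and 42 in Ckap2l, where position 1 is the first transcribed base in RefSeq. The RefSeq start is the GENCODE start in Ckap2l, lies before it by 4 bases in Plk1, 15 in Hmmr and 35 in Aurka, and lies 2394 bases inside the GENCODE span of Cdca8. Counted from the GENCODE start, the Hmmr match lies before it and the Aurka match spans it. Within 50 bases of the start on either side, a window chosen after these positions were seen, 4.94% of all promoters held the letters. The stretches around the matches in Aurka, Plk1, Hmmr and Ckap2l are shown for the letters around TTTGAA, which is in capitals.
Aurka (chr2:172370521-172370550, minus strand): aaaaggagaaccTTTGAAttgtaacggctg
Plk1 (chr7:122159453-122159482, plus strand): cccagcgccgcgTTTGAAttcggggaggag
Hmmr (chr11:40733412-40733437, minus strand): gaggtaaaTTTGAAttcaggcgagct
Ckap2l (chr2:129297163-129297192, minus strand): gtactagaacaaggcgcgcccTTTGAAgga

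The 100 bases before the start are shown for the 4 matched genes with the smallest p between genotypes. Capitals mark CCAAT or its reverse complement ATTGG and, in Ckap2l, the reverse complement TTCAAA of a second CHR match.
Birc5 (chr11:117849137-117849236, plus strand): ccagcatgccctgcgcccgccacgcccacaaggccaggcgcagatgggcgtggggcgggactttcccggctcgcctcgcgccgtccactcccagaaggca
Hmmr (chr11:40733438-40733537, minus strand): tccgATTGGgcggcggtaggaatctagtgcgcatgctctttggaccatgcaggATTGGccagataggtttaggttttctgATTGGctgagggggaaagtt
Ckap2l (chr2:129297213-129297312, minus strand): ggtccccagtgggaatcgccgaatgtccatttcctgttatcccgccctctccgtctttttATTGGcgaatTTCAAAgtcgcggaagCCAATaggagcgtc
Cdca8 (chr4:124936918-124937017, minus strand): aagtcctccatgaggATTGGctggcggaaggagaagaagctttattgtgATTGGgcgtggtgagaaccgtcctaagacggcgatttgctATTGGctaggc
Hmmr held 5 CCAAT matches in its 300-base promoter, Cdca8 4, Ckap2l 3, Aurka 2 and Plk1 1. A match describes letters only and was not tested as a binding site.

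**Figure D2:**
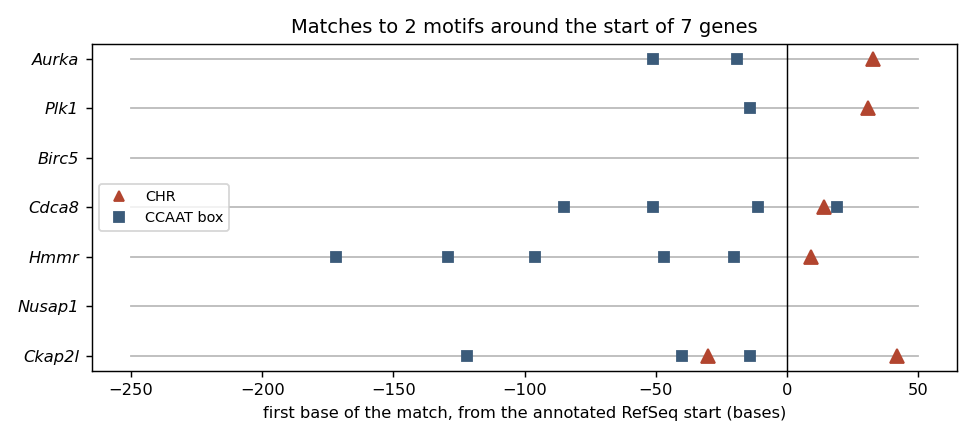
Positions of the CHR (triangles) and CCAAT (squares) matches from 250 bases before to 50 bases after the RefSeq start in the 7 genes with a RefSeq promoter. Each of 5 genes has a CHR triangle between positions 9 and 42 after the start, and Ckap2l has a second one before it, at -30. Birc5 and Nusap1 show no match.

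Of the kinases, Aurka differed most between libraries of the same genotype. Its normalised read count was 429, 332 and 927 in Mcph1-/- replicates 1 to 3, against 813, 137 and 145 in WT replicates 1 to 3. One library of each genotype was high (Mcph1-/- replicate 3 and WT replicate 1), and the groups overlapped. The log2 fold change was 1.01 (SE 0.78; 95% confidence interval -0.80 to 2.81; limma adjusted p = 0.728). It was 1.85 without WT replicate 1. Aurka lies on chromosome 2 (minus strand, 172356190 to 172370535) in GENCODE vM21 (mm10).

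Aurkb was the member with the least difference. Normalised read counts were 279, 181 and 279 in Mcph1-/- replicates 1 to 3, against 414, 232 and 91.1 in WT replicates 1 to 3. The Mcph1-/- libraries lay inside the WT range, and the means were 247 ± 56.6 in Mcph1-/- and 246 ± 162 in WT (SD, n = 3). Between genotypes the log2 fold change was 0.23 (SE 0.73; 95% confidence interval -1.46 to 1.92; limma adjusted p = 0.949), and it was -0.36 without WT replicate 3. The gene spans 69045647 to 69051664 on the plus strand of chromosome 11.

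Plk1 was highest in a different library from either Aurora kinase. Across libraries its normalised read count was 204, 618 and 426 in Mcph1-/- replicates 1 to 3, against 184, 344 and 271 in WT replicates 1 to 3. Replicate 2 of each genotype was the highest and replicate 1 the lowest. Its log2 fold change was 0.55 (SE 0.59; 95% confidence interval -0.81 to 1.90; limma adjusted p = 0.803), and it was 0.19 without Mcph1-/- replicate 2. Plk1 lies on chromosome 7 (plus strand, 122159439 to 122169873), and 156 of its exonic bases are shared with Gm44985 on the other strand.

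Among the passenger subunits, Birc5 (survivin, which brings the complex to the centromere) had the smallest SE of the 10 genes. Its normalised read count was 2572, 2262 and 1011 in Mcph1-/- replicates 1 to 3, against 1144, 814 and 759 in WT replicates 1 to 3. Mcph1-/- replicates 1 and 2 stood above all WT libraries, and Mcph1-/- replicate 3 lay below WT replicate 1. The means were 1948 ± 827 in Mcph1-/- and 906 ± 208 in WT (SD, n = 3), a ratio of 2.15. The log2 fold change was 1.02 (SE 0.38; 95% confidence interval 0.13 to 1.90; limma adjusted p = 0.626), and DESeq2 gave an adjusted p of 0.0999. Birc5 is on chromosome 11 (plus strand, 117849251 to 117855743).

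Cdca8 (borealin, which binds survivin and INCENP) was even across the Mcph1-/- libraries and uneven across the WT ones. Normalised read counts were 987, 770.3 and 778 in Mcph1-/- replicates 1 to 3, against 620.3, 188 and 855 in WT replicates 1 to 3. WT replicate 2 was low and WT replicate 3 lay within the Mcph1-/- range. Between genotypes the log2 fold change was 0.85 (SE 0.56; 95% confidence interval -0.43 to 2.14; limma adjusted p = 0.699), and it was 0.20 without WT replicate 2. Cdca8 spans 124918465 to 124939311 on the minus strand of chromosome 4 and shares 232 exonic bases with 9930104L06Rik on the other strand.

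The 4 subunits of the passenger complex did not share 1 pattern. Incenp, the scaffold, which is not one of the 10 genes, had a normalised read count of 153, 24.6 and 103 in Mcph1-/- replicates 1 to 3, against 300.4, 116 and 87.1 in WT replicates 1 to 3. Its log2 fold change was -0.98 (SE 1.12; limma adjusted p = 0.817), so that the group means were higher in Mcph1-/- for Birc5 and Cdca8, nearly equal for Aurkb and lower for Incenp, none of them past the test. The ratio of the Birc5 value to the Aurkb value within a library was 9.21, 12.5 and 3.62 in Mcph1-/- replicates 1 to 3, against 2.76, 3.51 and 8.33 in WT replicates 1 to 3. These ratios overlapped between genotypes.

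Tpx2, the activator of Aurora A on the spindle, had the smallest p of the 10 genes. Across libraries its normalised read count was 889, 763 and 673 in Mcph1-/- replicates 1 to 3, against 192, 91.7 and 421 in WT replicates 1 to 3. The Mcph1-/- libraries were close together and all above WT replicate 3, the highest WT library. The means were 775 ± 108 in Mcph1-/- and 235 ± 169 in WT (SD, n = 3), a ratio of 3.30. Its log2 fold change was 1.97 (SE 0.60; 95% confidence interval 0.60 to 3.35; limma adjusted p = 0.610, with a rank of 188 by p among all tested genes). Over all alternatives tried it ran from 1.43 to 2.53, and its adjusted p from 0.0865 by DESeq2 to 0.858. Tpx2 is on chromosome 2 (plus strand, 152847964 to 152895321).

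Tpx2 and its partner kinase Aurka were not in proportion. The ratio of the Tpx2 value to the Aurka value within a library was 2.07, 2.30 and 0.726 in Mcph1-/- replicates 1 to 3, against 0.236, 0.669 and 2.91 in WT replicates 1 to 3. Both genotypes held libraries with a ratio above 1 and below it. WT replicate 1, in which Aurka was high, had the lowest ratio.

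Hmmr, which encodes a spindle protein that helps to place TPX2 at the poles, was the other gene whose groups were apart. Its normalised read count was 278, 368 and 326 in Mcph1-/- replicates 1 to 3, against 65.1, 15.5 and 156 in WT replicates 1 to 3. As with Tpx2, the Mcph1-/- libraries were even, and WT replicate 3 was the highest and WT replicate 2 the lowest of the WT libraries. The means were 324 ± 45.1 in Mcph1-/- and 78.8 ± 71.2 in WT (SD, n = 3), a ratio of 4.11. The log2 fold change was 2.54 (SE 1.03; 95% confidence interval 0.17 to 4.91; limma adjusted p = 0.639). Hmmr spans 40701395 to 40733422 on the minus strand of chromosome 11.

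Nusap1, a microtubule-bundling protein of the central spindle, had groups that overlapped widely. Normalised read counts were 501, 95.2 and 199 in Mcph1-/- replicates 1 to 3, against 95.4, 272 and 199 in WT replicates 1 to 3. The lowest library of each genotype stood at the same level. Between genotypes the log2 fold change was 0.29 (SE 0.85; 95% confidence interval -1.66 to 2.24; limma adjusted p = 0.943), and it was -0.33 without Mcph1-/- replicate 1 and -0.14 without WT replicate 1. Nusap1 is on chromosome 2 (plus strand, 119618298 to 119651244) and shares 172 exonic bases with Oip5 on the other strand.

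Dlgap5, a kinetochore-fibre protein also called HURP, and Ckap2l, a centrosome and spindle protein, were read in some libraries and not in others. Dlgap5 had a normalised read count of 248, 0 and 229 in Mcph1-/- replicates 1 to 3, against 219, 4.12 and 0 in WT replicates 1 to 3. It was thus high in 2 Mcph1-/- libraries and 1 WT library and at or near 0 in the other 3. A library with 0 reads may hold up to 3 reads' worth, a value of 2.46 in Mcph1-/- replicate 2 and 3.04 in WT replicate 3, counting error only. The ratio of its means was 2.14 (means 159 ± 138 in Mcph1-/- and 74.4 ± 125 in WT, SD, n = 3). The fitted value of 1.89 on the log2 scale (SE 2.83; limma adjusted p = 0.869) depends on the added 1.

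Ckap2l had a normalised read count of 399.6, 516 and 246 in Mcph1-/- replicates 1 to 3, against 592, 0 and 101 in WT replicates 1 to 3. The highest and the lowest of the 6 libraries were both WT. The ratio of its means was 1.68, while the fitted log2 fold change was 3.24 (SE 2.11; limma adjusted p = 0.699), raised by the 0 reads of WT replicate 2. Without WT replicate 2 it was 0.59. Dlgap5 is on chromosome 14 (minus strand, 47387779 to 47418407). Ckap2l is on chromosome 2 (minus strand, 129268210 to 129297212), with 181 exonic bases shared with the antisense gene Gm14024.

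**Figure D3:**
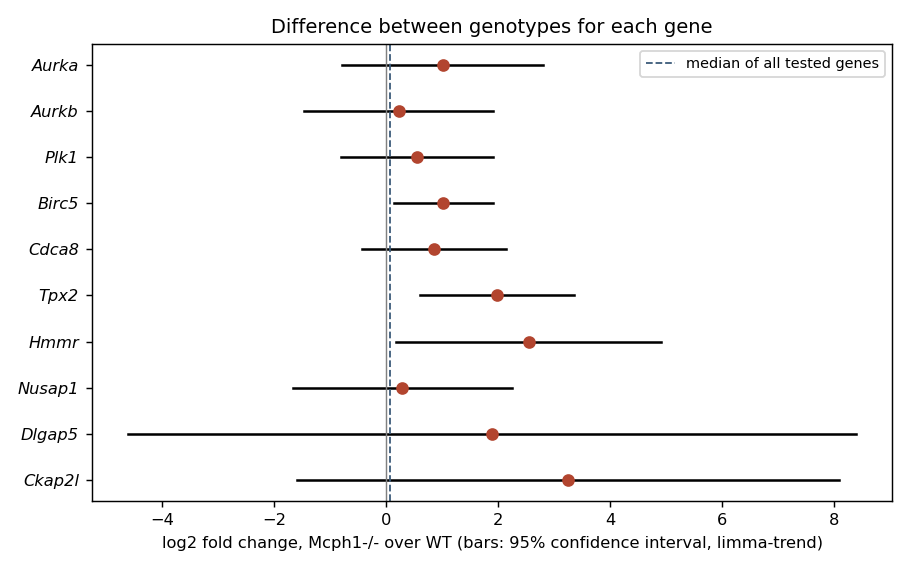
Log2 fold change (Mcph1-/- over WT) of each gene with its 95% confidence interval from limma-trend, and the median of all tested genes as a dashed line. The intervals of Birc5, Tpx2 and Hmmr lie above 0, those of the other 7 genes include 0, and none passed after adjustment over all genes.

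Replicates of a genotype differed by more than counting error for every gene. In all 20 pairs of a gene and a genotype, the exact 95% Poisson intervals of the highest and the lowest library did not meet. For Aurka in WT these were 756 to 874 in replicate 1 and 115 to 162 in replicate 2. Since no molecular identifiers were used, reads are not independent molecules, and these intervals cover counting error only. The pooled SD of log2 values within a genotype had a median of 0.92 over the 10 genes, against 0.88 over all tested genes, and ran from 0.56 for Birc5 to 4.29 for Dlgap5. The coefficient of variation was 14.0% in Mcph1-/- and 71.9% in WT for Tpx2, 13.9% in Mcph1-/- and 90.4% in WT for Hmmr, and 14.6% in Mcph1-/- and 61.1% in WT for Cdca8. It was larger in Mcph1-/- than in WT for 3 of the 10 genes, Birc5 (42.4% in Mcph1-/-, 23.0% in WT), Nusap1 (79.5% in Mcph1-/-, 47.0% in WT) and Plk1 (49.7% in Mcph1-/-, 30.001% in WT). The difference in spread was not tested.

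Levels of different genes were compared per length, as RPKM (reads scaled by exon length and by the listed reads of the library). In Mcph1-/- Birc5 stood highest at 66.7 ± 27.9 RPKM, followed by Aurka (26.1 ± 15.0), Plk1 (22.1 ± 11.01), Tpx2 (19.3 ± 2.52), Cdca8 (19.1 ± 2.63), Ckap2l (14.4 ± 4.96), Aurkb (9.78 ± 2.26), Nusap1 (7.61 ± 5.99), Hmmr (6.98 ± 0.991) and Dlgap5 (2.74 ± 2.37; SD, n = 3). In WT Birc5 was again first at 30.4 ± 6.89 RPKM, followed by Aurka (16.4 ± 17.4), Plk1 (13.9 ± 4.22), Cdca8 (12.2 ± 7.45), Aurkb (9.52 ± 6.25), Ckap2l (8.39 ± 11.5), Tpx2 (5.73 ± 4.12), Nusap1 (5.33 ± 2.52), Hmmr (1.66 ± 1.496) and Dlgap5 (1.24 ± 2.10; SD, n = 3). Birc5 exceeded Aurka by more than either SD in Mcph1-/- and not in WT. From Aurka downward, neighbours in both orders lay within 1 SD of each other, except Hmmr and Dlgap5 in Mcph1-/- and Nusap1 and Hmmr in WT, whose differences exceeded the larger SD. Tpx2 was the gene whose place moved most, the fourth in Mcph1-/- and the seventh in WT.

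Added together, the 10 genes were higher in every Mcph1-/- library than in any WT library. The sum of normalised read counts was 6786, 5906 and 5094 in Mcph1-/- replicates 1 to 3, against 4340, 2098 and 2999 in WT replicates 1 to 3. The means were 5929 ± 846 in Mcph1-/- and 3146 ± 1128 in WT (SD, n = 3), a ratio of 1.88, and no test was made of this sum. The ratio was 1.62 without WT replicate 2 and 2.33 without WT replicate 1. Without Birc5, the most abundant member, the sums still did not overlap (4214, 3644 and 4084 in Mcph1-/- replicates 1 to 3, against 3196, 1284 and 2240.2 in WT replicates 1 to 3).

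The sum over the 5 spindle factors was 2315, 1742 and 1674 in Mcph1-/- replicates 1 to 3, against 1164, 383 and 878 in WT replicates 1 to 3, a ratio of means of 2.36. Aurkb, Birc5 and Cdca8 together gave 3838, 3214 and 2068 in Mcph1-/- replicates 1 to 3, against 2179, 1233 and 1706 in WT replicates 1 to 3. The spindle sums did not overlap between genotypes and the passenger sums did. In bulk samples, more cells in division in Mcph1-/- and more RNA of these genes per dividing cell cannot be told apart.

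**Figure D4:**
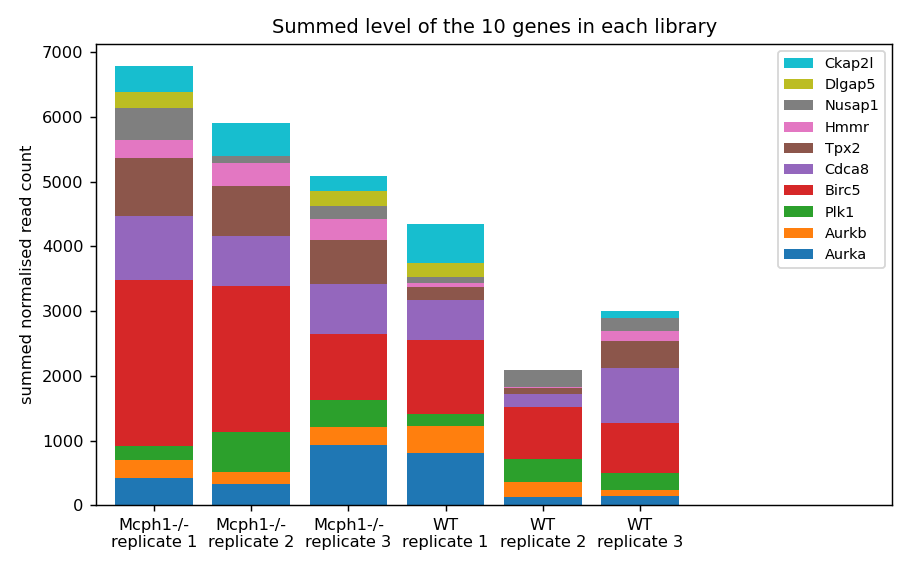
Summed normalised read count of the 10 genes in each library, with 1 colour per gene and bars starting at 0. The 3 Mcph1-/- bars (5094 to 6786) are all taller than the 3 WT bars (2098 to 4340), and Birc5 is the largest part of every bar but that of WT replicate 3.

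WT replicate 1 was the highest WT library for Aurka, Aurkb, Birc5, Dlgap5 and Ckap2l, 5 of 10, and WT replicate 2 was the lowest WT library for 5 of 10. Mcph1-/- gave the same counts, with replicate 1 the highest of that genotype for 5 of 10 and replicate 2 the lowest for 5 of 10. For Aurkb and Ckap2l WT replicate 1 was the highest of all 6 libraries. The same library had the lowest WT value of Plk1 and Nusap1, and of Mki67, a marker of proliferating cells, whose normalised read count was 725, 625 and 159 in Mcph1-/- replicates 1 to 3, against 18.4, 404 and 311 in WT replicates 1 to 3. Without WT replicate 1 the members' median log2 fold change was 1.52, and the groups were apart for 5 of the 10 genes, against 13.1% of the genes tested then.

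Partners and neighbours of these genes were taken from fixed lists, leaving out the 10 genes. The lists were written with earlier results of these data known, so counts over these partners are a description. Of 131 such genes tested, 86 had a log2 fold change above 0 and 45 below 0, and 0 passed by limma-trend. At an unadjusted p under 0.05 there were 20 of the 131, against 7.71% of all tested genes, and every Mcph1-/- library lay above every WT library for 22 of the 131, against 7.40%. edgeR and limma-voom called 0 of them, and DESeq2 called 10 of the 131, against 2.23% of all genes. Of those 10, 9 were higher (Ran, Kif11, Ube2c, Mcm6, Cenpa, Haus3, Rfc4, Ttk and Rrm2) and Plk2 was lower. Kif11 and Ttk passed the filter on mean value only through their Mcph1-/- libraries, with WT means of 1.03 and 1.37.

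Of 29 tested spindle assembly partners, 21 were higher and 8 lower by log2 fold change, with a median of 0.42, and 0 passed. Ran, the GTPase whose gradient around chromosomes frees TPX2 from importins, had a normalised read count of 4349, 5227 and 5174 in Mcph1-/- replicates 1 to 3, against 2740.4, 2577 and 2359 in WT replicates 1 to 3. Its groups were apart (log2 fold change 0.94, SE 0.17; limma adjusted p = 0.320). Kif11, a spindle motor that binds TPX2, had 1084 reads over the Mcph1-/- libraries and 3 over the WT libraries. Its normalised read count was 213, 500 and 215 in Mcph1-/- replicates 1 to 3, against 0, 3.09 and 0 in WT replicates 1 to 3. The log2 fold change was 7.48 (SE 1.51, limma adjusted p = 0.428) and depends on the added 1. Kif11 passed the filter on mean value only through its Mcph1-/- libraries. Reads pooled over libraries and scaled for depth gave a 303-fold difference (exact 95% limits 103 and 1472). These limits cover counting alone and leave out the spread between replicates. For Haus3, a subunit of the augmin complex that branches microtubules, the log2 fold change was 1.17 (SE 0.32; limma adjusted p = 0.566).

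Of 13 tested passenger complex partners, 10 were higher and 3 lower, with 0 past the test and a median of 1.01 on the log2 scale. Cenpa, the centromeric histone H3 variant, had a normalised read count of 2438, 2973 and 2941 in Mcph1-/- replicates 1 to 3, against 557, 686 and 1615 in WT replicates 1 to 3. Its groups were apart (log2 fold change 1.70, SE 0.39; limma adjusted p = 0.506). Sgo1, shugoshin, which protects centromeric cohesion, had 372, 121 and 180.4 in Mcph1-/- replicates 1 to 3, against 45.5, 6.18 and 18.2 in WT replicates 1 to 3, also apart (limma adjusted p = 0.626).

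Of 14 tested partners and relatives of Plk1, 10 were higher and 4 lower, with 0 past the test and a median of 0.30 on the log2 scale. Plk2, a relative of Plk1 that acts in centriole duplication and stress responses, went the other way from Plk1, with a normalised read count of 108, 144 and 149 in Mcph1-/- replicates 1 to 3, against 453, 518 and 501 in WT replicates 1 to 3. The libraries of each genotype were close together, and the log2 fold change was -1.88 (SE 0.53; limma adjusted p = 0.589; DESeq2 adjusted p = 0.0016). For Ccnb1, cyclin B1, it was 1.89 (SE 0.61; limma adjusted p = 0.626). Cdc25b, a phosphatase that activates CDK1 and a substrate of Aurora A, was listed at 0, 50.9 and 0 in Mcph1-/- replicates 1 to 3, against 180.0, 152 and 262 in WT replicates 1 to 3, apart in the opposite direction to the 10 genes and not past the test (limma adjusted p = 0.626).

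Of 18 tested genes of the anaphase-promoting complex, which marks Aurora kinases, PLK1 and TPX2 for destruction, 11 were higher and 7 lower (median log2 fold change 0.08). Every Mcph1-/- library lay above every WT library for 2 of the 18, against 7.40% of all tested genes, and below for 2. Ube2c, with the smallest p of the list, was at 2047, 2064 and 2044 in Mcph1-/- replicates 1 to 3. In WT replicates 1 to 3 it was at 335, 690 and 253 (log2 fold change 2.40, limma adjusted p = 0.277). Of 16 genes listed with the phosphatases that oppose these kinases, 4 were higher and 12 lower with a median of -0.37. In that list Ensa and Arpp19 encode phosphatase inhibitors, and Ankle2 encodes no phosphatase. These were among the lower, with log2 fold changes of -0.75, -0.09 and -0.79. Of 17 tested G2/M transcription factor genes, 10 were higher and 7 lower with a median of 0.11; Foxm1 and Mybl2 are not analysed here. Of 25 tested S phase genes, 21 were higher and 4 lower with a median of 0.66, against 0.08 for all tested genes. No gene of these lists passed by limma-trend.

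**Figure D5:**
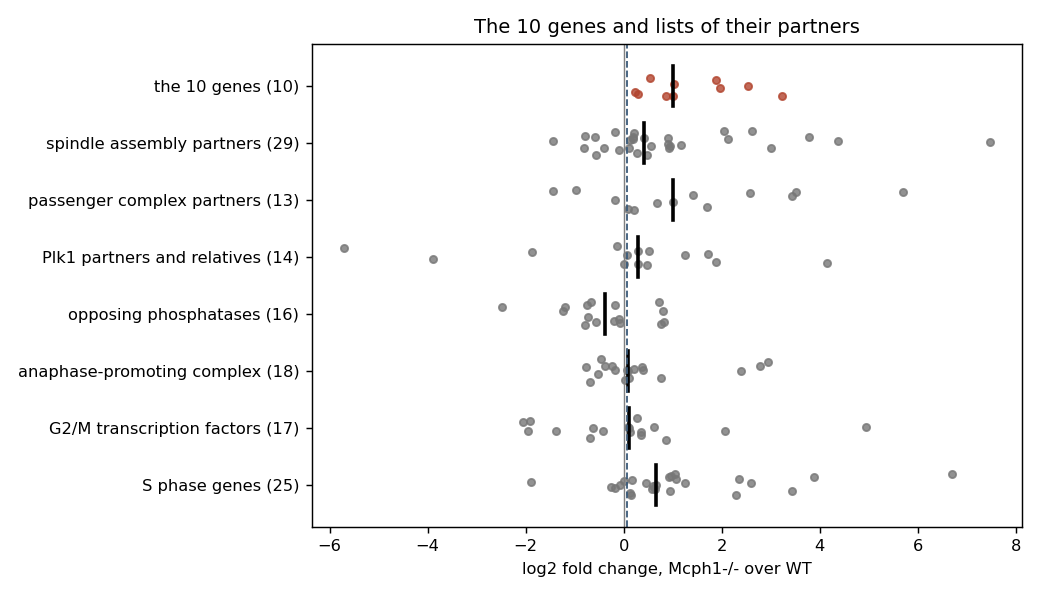
Log2 fold change (Mcph1-/- over WT) of the 10 genes (red) and of each tested gene in 7 lists of partners (grey), with the number tested in brackets, black bars at each median and the median of all tested genes as a dashed line. The 10 genes have a median of 1.01, the same as the passenger complex partners. The list named opposing phosphatases, which also holds phosphatase inhibitors, has a median of -0.37.

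The genes whose log2 values over the 6 libraries were most like the mean standardised profile of the 10 genes were Stard9 (Pearson r = 0.99), Sgo1 (0.99), Prmt2 (0.99), Itpa (0.98) and Pomt2 (0.98). They were taken from all tested genes, and the 6 points share the genotype difference and each library's depth, so these values are a description. The members themselves were less alike: the correlation of each with the mean profile of the other 9 ran from -0.15 for Plk1 and -0.10 for Nusap1 to 0.78 for Hmmr and 0.79 for Tpx2 (6 libraries).

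Library facts that ran with genotype are given for the whole series. Totals were 9464810 to 10455908 reads in Mcph1-/- and 8102605 to 8655123 in WT, and 10516 to 10777 of the listed genes had reads in Mcph1-/- against 10209 to 10335 in WT. Mcph1 was read in every library, at 37.7 to 428 in Mcph1-/- and 34.4 to 341 in WT, and since the deleted part of the gene is unknown here, its reads are no check of the labels. Stem cell markers summed to 21488 to 23030.0 in Mcph1-/- and 27453 to 31177 in WT, with all 16 in the table. Slamf1, which encodes the sorting marker CD150, was listed at 65.7, 395 and 0.893 in Mcph1-/- replicates 1 to 3, against 0, 224 and 497 in WT replicates 1 to 3. It was thus at or near 0 in 1 library of each genotype, while Kit and Ly6a (c-Kit and Sca-1) were above 1000 in all 6. The 15 erythroid markers in the table summed to 52954 to 60084 in Mcph1-/- and 20571 to 42732 in WT, with Tfrc at 0 in 1 library of each genotype. Without Car1, a sum taken after the values were seen, they overlapped (28239 to 29238 in Mcph1-/- and 18943 to 38166 in WT). By log2 fold change 10 of the 15 were higher and 5 lower. Every Mcph1-/- library lay above every WT library for 6 of the 15, against 7.40% of all tested genes. These 6 were Car1, Blvrb, Klf1, Gata1, Tspo2 and Ermap. The globins Hba-a1, Hba-a2 and Hbb-bs were lower in every Mcph1-/- library than in any WT library, while the groups of Hbb-bt overlapped (log2 fold change 0.14). Hba-a1 was uneven in WT, at 581, 251 and 8516 in replicates 1 to 3. Hba-a2 and Hbb-bs stood at 1748 and 2257 in WT replicate 3, against 24.7 to 65.1 in the other WT libraries. The 9 neutrophil and granule markers summed to 7686 to 23867 in Mcph1-/- and 66148 to 80265 in WT. Summed markers of multipotent progenitors, megakaryocytes, macrophages, B cells and T and NK cells overlapped between genotypes. Of the 4 progenitor markers, Cd48 alone had groups that were apart, and the other 3 had log2 fold changes below 0. Cd48 stood at 296, 1153 and 514 in Mcph1-/- replicates 1 to 3, against 2.17, 120 and 101 in WT replicates 1 to 3 (limma adjusted p = 0.626). The part of depth and of other cell types in the values of the 10 genes was not tested. Of the defining markers of macrophages, B cells and T cells, Csf1r, Adgre1, Pax5, Cd3e and Cd3g are not analysed here.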

How the data were processed

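Paired 150-bp reads were sequenced, per the labels' protocols. Tools listed in the submitters' processing notes are Trim Galore 0.6.6, HISAT2, featureCounts and DESeq2, with build mm10; which annotation release and strand setting were used is not stated. The deposited values are a signal: gene read counts that the authors divided by 1 size factor per library. This was read from the values, since all of them (100%) were whole multiples of 1 read within 0.001 reads. The recovered reads numbered 8102605 to 10455908 per library. Every listed gene had reads in at least 4 libraries, and a gene read in fewer is not listed.

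Log2(value + 1) was fitted with limma-trend 3.58.1 (R 4.3.3) on genotype, for the 10846 genes whose values averaged 10 or more, adjusted by Benjamini-Hochberg, with 0.05 as the threshold. The added 1 shrinks the fold change of low genes, and a library at 0 pulls a group's log mean down. edgeR 4.0.16 (quasi-likelihood), DESeq2 1.42.0 and limma-voom on the recovered reads were alternatives. All fits were run on simulated data with changes larger than those of most members, which leaves the power at smaller changes unknown. Gene positions are those of GENCODE vM21 (mm10), counted from 1, with 10 of 10 members matched by identifier. Without a known strand setting, genes whose exons overlap another gene are uncertain. Libraries of a genotype were not duplicates (lowest chi-square per degree of freedom 81.5).

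Members and lists were chosen with earlier results of these data known. Named were the 10 members, Incenp, Mcph1, Mki67 and the 5 genes most like the members by Pearson correlation. From some of the partner lists, genes among the 3 of smallest p were named as well. The other settings were another test, scaling, pseudocount or filter, a replicate block and leaving out each library.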

Additional observations from a re-analysis of the deposited data

How the results depend on the processing

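Under 15 alternatives none of the 10 genes passed (DESeq2 gave Dlgap5 no adjusted p), and 147 of 150 log2 fold changes kept their sign. With 1 library left out, Nusap1 ran from -0.33 (without Mcph1-/- replicate 1) to 0.86, and was -0.14 without WT replicate 1, and Aurkb ran from -0.36 (without WT replicate 3) to 0.73. The members' median was 0.72 by edgeR, 0.69 by DESeq2, 1.06 by limma-voom and 0.98 with a pseudocount of 16, and 0.68 to 1.52 when 1 library was left out, highest without WT replicate 1. With TMM scaling it was 1.04 and all tested genes had a median of 0.10, and with quantile normalization 1.03 and 0.01. The number of genes called over all tested was 4, against 2 by edgeR, 238 by DESeq2, 1 by limma-voom and 1 to 4 without 1 library; for partner lists it was 0, against 10 by DESeq2. The cause of the difference between tools was not tested. The number of members with every Mcph1-/- library above every WT library was 2 to 5 without 1 library. The share of all tested genes with that pattern was then 11.3% to 15.9%, against 7.40% with all 6 libraries. In such fits Mcph1 ran from -0.58 to 1.34 and the median of the anaphase-promoting complex list from -0.082 to 0.17. Samples with the same replicate number did not deviate together (correlations -0.014, 0.018 and -0.030). That cannot exclude a shared batch, because single libraries varied widely (correlations of 0.58 to 0.72 within a genotype). A replicate block gave 3 calls over all genes and 0 among the members. Counting intervals were narrower than the spread between replicates.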
